A study of Homo sapiens with 16 samples.

Results

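The 22616 open regions at the ends of protein-coding genes were described here in ATAC-seq data from IMR90, a line of human lung fibroblasts. ATAC-seq marks open chromatin by where Tn5 transposase can cut. Peaks of all 16 libraries were pooled over the autosomes and chromosome X, and overlapping intervals were merged. A merged region counted when 2 or more libraries had a peak in it and its midpoint was no farther than 1 kb from the start or the end of a protein-coding gene (hg38). These regions were 7.56% of the 299052 regions shared by at least 2 libraries.

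All cells had been infected with a retrovirus carrying △B-RAF:ER, a Raf kinase fused to the estrogen receptor that 4-hydroxy-tamoxifen (4-OHT) switches on. The labels name 4 groups of 4 replicates: Raf-inactivated and Raf-activated cells in normoxia, and the same pair in hypoxia (0.5% O2). What the Raf-inactivated cells received, the promoter that drives the fusion, and whether replicates were separate cultures are not given in the sources used here, so the p-values rest on library-to-library spread that may be technical alone. The series asks how hypoxia changes chromatin accessibility in senescence induced by Raf.

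A gene start holds the promoter, where transcription factors and RNA polymerase II keep nucleosomes away, above all where the DNA is rich in CG dinucleotides. At the other end of a gene the transcript is cut and polyadenylated, and polymerase runs on into the flank before it lets go of the DNA. Sustained Raf signalling drives fibroblasts into oncogene-induced senescence, a lasting arrest with a strong secretory programme and reordered chromatin.

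Gene orientation was taken from the RefSeq promoter table, which oriented 15812 of the 19974 protein-coding genes. Of the 22616 regions, 12623 lay at a gene start and 5593 lay at a 3′ end and at no start. The other 4400 lay at ends of genes without an orientation and are called unoriented. The start and the 3′ end are the outer ends of each gene's RefSeq record, so a gene read mainly from an inner promoter is described here by its outermost one. The rule's 1 kb limit did not divide distinct kinds of region: 28.1% of the 1196 regions in the last 100 bp inside it had a peak in all 16 libraries, and so did 28.7% of the 1161 regions in the first 100 bp outside it.

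As examples of promoters, the 250 bases before the start of 6 genes are printed from RefSeq (GRCh38.p14). They read 5′ to 3′ along the gene, with every CG dinucleotide in capitals. The genes were chosen after their values were seen and do not represent their sets. SERPINB7, DOK3 and CCL20 gained a peak at the start with Raf in normoxia, and their 250 bases held 1, 2 and 3 CG dinucleotides. MAP2K6 and TRAM1L1 lost theirs with Raf in normoxia but not in hypoxia and held 20 and 17. These examples do not show a split between gained and lost starts, as both sets were poor in CG dinucleotides. In the slightly longer promoter window used below, genes with starts gained with Raf in normoxia had a median of 6. Those with lost starts had 9.5, and all promoters 22. PCNA, the sliding clamp of DNA replication, was open in all 16 libraries and held 29.
SERPINB7 (chr18:63752807-63753056, plus strand): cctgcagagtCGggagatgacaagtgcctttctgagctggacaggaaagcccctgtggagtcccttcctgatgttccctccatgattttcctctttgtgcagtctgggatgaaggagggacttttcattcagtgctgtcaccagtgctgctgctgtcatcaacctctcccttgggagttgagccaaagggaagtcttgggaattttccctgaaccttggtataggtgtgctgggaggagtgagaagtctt
DOK3 (chr5:177511101-177511350, minus strand): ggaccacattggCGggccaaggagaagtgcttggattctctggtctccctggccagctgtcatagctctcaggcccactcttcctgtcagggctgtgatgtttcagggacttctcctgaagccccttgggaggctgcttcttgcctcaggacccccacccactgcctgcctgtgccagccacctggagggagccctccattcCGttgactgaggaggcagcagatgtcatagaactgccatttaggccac
CCL20 (chr2:227813592-227813841, plus strand): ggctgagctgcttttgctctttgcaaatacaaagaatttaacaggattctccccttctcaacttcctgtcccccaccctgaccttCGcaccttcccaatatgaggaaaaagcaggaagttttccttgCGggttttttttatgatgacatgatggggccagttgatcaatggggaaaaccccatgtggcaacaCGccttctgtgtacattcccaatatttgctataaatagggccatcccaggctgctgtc
MAP2K6 (chr17:69414447-69414696, plus strand): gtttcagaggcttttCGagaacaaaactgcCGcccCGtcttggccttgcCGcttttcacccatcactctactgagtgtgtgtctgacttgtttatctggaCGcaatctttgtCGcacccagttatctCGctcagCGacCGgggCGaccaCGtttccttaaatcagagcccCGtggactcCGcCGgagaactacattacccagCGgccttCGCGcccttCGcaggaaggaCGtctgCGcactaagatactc
TRAM1L1 (chr4:117085577-117085826, minus strand): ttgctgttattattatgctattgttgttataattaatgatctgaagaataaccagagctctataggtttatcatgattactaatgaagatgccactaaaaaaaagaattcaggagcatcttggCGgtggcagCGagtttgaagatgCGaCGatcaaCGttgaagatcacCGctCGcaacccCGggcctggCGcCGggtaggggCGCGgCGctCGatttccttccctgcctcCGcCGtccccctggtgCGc
PCNA (chr20:5126623-5126872, minus strand): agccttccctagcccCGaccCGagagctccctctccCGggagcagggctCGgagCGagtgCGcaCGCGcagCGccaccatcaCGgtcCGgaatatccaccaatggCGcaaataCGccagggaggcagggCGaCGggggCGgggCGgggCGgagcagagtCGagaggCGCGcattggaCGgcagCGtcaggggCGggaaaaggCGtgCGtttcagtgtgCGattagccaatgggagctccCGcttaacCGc

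Gene starts were the part of the set most often called in every library, which does not show that their strength was stable. A peak was present in all 16 libraries at 74.9% of start regions, against 21.2% of 3′ end regions, 52.5% of unoriented regions and 23.8% of the 276436 regions away from gene ends. Start regions were also long, with a median of 1117 bp against 484 bp at 3′ ends and 458 bp elsewhere. Their midpoints lay a median of 62 bp past the start, with quartiles at -113 and 278 bp. Regions that served 2 or more gene starts, 1259 in all, were open in every library in 89.0% of cases, against 73.3% for regions at a single start. Counted by gene, 10312 of 15812 oriented genes (65.2%) had a start open in all 16 libraries, and 1748 (11.1%) had such a 3′ end.

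**Figure D1:**
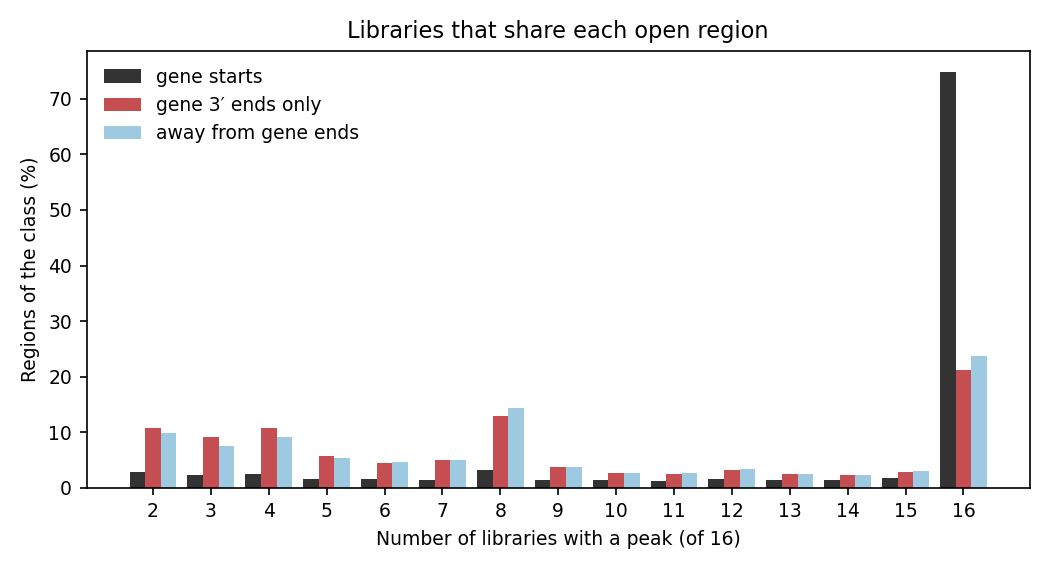
Share of the regions of each class (y axis, percent) by the number of libraries that had a peak (x axis, 2 to 16), for gene starts, 3′ ends only and regions away from gene ends. The bar at 16 libraries reaches 74.9% for gene starts and 21.2% for 3′ ends, and 3′ ends also pile up at 8 libraries (12.98%).

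Sequence separated these starts along the same lines. Promoters of the genes whose start was open in all 16 libraries had a median of 27 CG dinucleotides in the 300 bases from 250 before to 50 after the start, against 4 for genes with no start region. Over all 14541 genes with a promoter entry the median was 22. The GGGCGG letters bound by SP1 factors, searched on both strands, were in 73.1% of the always-open promoters, in 22.95% of those with no region and in 59.1% of all. CCGGAAG, an ETS-type motif, was in 20.1%, 3.42% and 14.7%. The reverse held for TATAAA, which was in 5.37%, 21.2% and 9.77%.

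Depth differed with the groups and stands beside every count below. The genome-wide background pileup recovered from the peak lists, which stands in for read depth here, was 3.01 to 3.50 in Raf-inactivated normoxia, 6.09 to 7.10 in Raf-activated normoxia, 4.61 to 5.02 in Raf-inactivated hypoxia and 6.53 to 8.34 in Raf-activated hypoxia. More depth brings weaker peaks over the calling threshold, so each percentage was also taken at matched depth, after every summit had been thinned to the shallowest library and kept only at a -log10 p of at least 5. Libraries had 169287 to 206757 distinct peaks. A region without a peak was not called at that depth, which does not show that it was closed, and in bulk libraries fewer open cells and less opening per cell cannot be told apart. Of the fibroblast markers, 8 of 12 had a peak at an end of the gene in all 16 libraries, among them VIM, DCN and COL1A1, and THY1 had none in any. The same was true of 5 of 10 epithelial, 3 of 8 endothelial, 3 of 8 blood and 3 of 8 neuronal markers, so open gene ends did not tell these cell types apart. The number of fibroblast markers open was 11 in every Raf-inactivated normoxia library, 8 to 11 in Raf-activated normoxia, 10 to 11 and 9 to 10 in the corresponding hypoxia groups.

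With Raf active in normoxia, 3′ ends opened far more than starts did. The share of 3′ end regions with a peak was 41.3% to 42.2% in the 4 Raf-inactivated libraries and 67.4% to 73.5% in the 4 Raf-activated ones, so the groups did not overlap. Their means were 41.8% ± 0.409 and 71.2% ± 2.72 (SD, n = 4 each), a rise of 29.4 percentage points (exact permutation test, two-sided, adjusted p = 0.0343, from the smallest raw p that 4 against 4 allows, 0.0286). Start regions rose from 84.1% ± 0.700 to 87.4% ± 0.582, with the same adjusted p in the exact test. The number of oriented genes with an open 3′ end went from 2898 to 2945 per library to 4250 to 4531, an increase of 1510 genes between the means (exact permutation test, adjusted p = 0.0327). At matched depth the 3′ end regions still rose, from 39.5% ± 0.279 to 57.9% ± 1.17, while the rise of starts, 1.299 points, no longer passed (adjusted p = 0.0623, exact permutation test). With a fold over the local background of at least 5 required, the rise at 3′ ends was 2.74 points. It did not pass (exact permutation test, raw p = 0.0286, adjusted p = 0.0571), and the value for starts turned to -0.194 points.

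**Figure D2:**
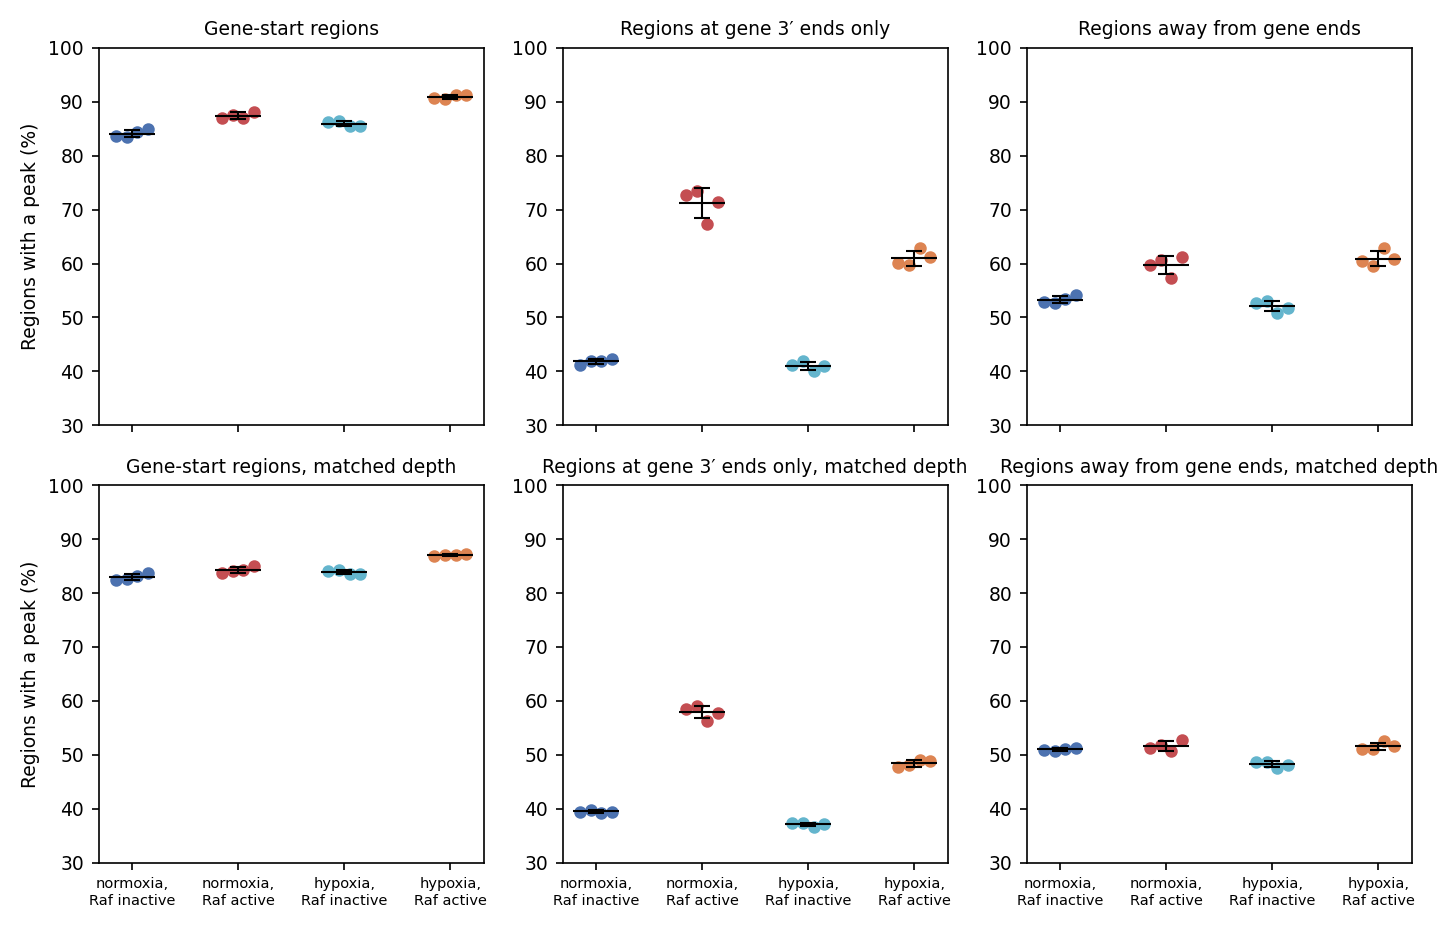
Percent of regions with a peak (y axis) in each library (points) for gene starts, 3′ ends only and regions away from gene ends, by group (x axis), at full depth (top) and at matched depth (bottom). Black marks and bars give the mean and SD of 4 libraries. At 3′ ends the Raf-activated normoxia libraries sit between 67.4% and 73.5%, above the Raf-activated hypoxia libraries at 59.7% to 62.9% and all Raf-inactivated libraries.

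In hypoxia the same switch raised 3′ ends by less and starts by more. The share of 3′ end regions with a peak rose from 41.0% ± 0.719 to 61.0% ± 1.44, by 19.9 points, and that of starts from 85.9% ± 0.489 to 90.9% ± 0.408, by 4.98 points (exact permutation tests, adjusted p = 0.0343 each, n = 4 per group, no overlap). With a fold of at least 5 these rises were 2.37 and 0.800 points and did not pass (exact permutation tests, raw p = 0.0286 and adjusted p = 0.0571 each). Set directly against each other, the Raf-activated groups differed: hypoxia had 10.2 points fewer 3′ end regions with a peak than normoxia and 3.50 points more starts (exact permutation tests, adjusted p = 0.0343 each). With a fold of at least 5 these differences were -0.818 and 1.60 points and did not pass (exact permutation tests, raw p = 0.0857 and 0.0286, adjusted p = 0.129 and 0.0571). Background pileups of those groups overlapped, and at matched depth 3′ ends still stood at 57.9% ± 1.17 in normoxia against 48.5% ± 0.627 in hypoxia. In Raf-inactivated cells, hypoxia gave a difference of -0.814 points at 3′ ends, with overlapping libraries (exact permutation test, adjusted p = 0.0857), and starts rose by 1.85 points (adjusted p = 0.0343, exact permutation test). At matched depth that 3′ end difference was -2.38 points and passed (adjusted p = 0.0343, exact permutation test), while the one at starts, 0.877 points, did not (adjusted p = 0.0857, exact).

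Gene-end regions as a whole were compared with the other regions by the difference between their shares with a peak. This excess was 16.9 ± 0.151 points in Raf-inactivated and 22.4 ± 0.708 in Raf-activated normoxia, and 19.1 ± 0.432 and 20.5 ± 0.645 in hypoxia (SD, n = 4). It rose with Raf in normoxia, rose with hypoxia in Raf-inactivated cells and fell by 1.91 points with hypoxia in Raf-activated cells (exact permutation tests, adjusted p = 0.0343 each). With Raf in hypoxia the rise of 1.38 points did not pass (adjusted p = 0.0623, exact permutation test), and it turned to -1.23 when the distance limit was 500 bp. The change was 2.81 at matched depth, 3.40 with equal list lengths and 4.61 with a limit of 2 kb, and passed in each (exact permutation tests, adjusted p = 0.0343, 0.0312 and 0.0286). The value at 500 bp passed as a fall (adjusted p = 0.0381, exact permutation test). With a fold of at least 5, none of the 3 changes that passed did so. The change with Raf in normoxia was then 1.60 points (exact permutation test, raw p = 0.0286, adjusted p = 0.0571).

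The position of the added peaks was asymmetric over the wider flanks, but the rise began before the end. Over 5142 isolated 3′ ends, those of genes longer than 20 kb with no other gene end within 10 kb, the share covered by a peak 2 kb before the end was 3.45% ± 0.121 in Raf-inactivated and 3.69% ± 0.162 in Raf-activated normoxia. It was 3.43% ± 0.146 and 4.43% ± 0.237 at 1 kb before the end, and 3.40% ± 0.0800 and 5.31% ± 0.249 at 500 bp before it. At the end itself it was 3.19% ± 0.156 and 6.25% ± 0.543, and 2 kb past the end 4.26% ± 0.178 and 7.25% ± 0.418. At 10 kb past the end the values had come closer, at 3.84% ± 0.213 and 5.31% ± 0.292. By contrast the summit of the profile at 5706 isolated starts stayed at 67.6% ± 0.570 and 67.4% ± 0.481.

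This asymmetry was measured per library as the mean share covered over the 5 kb after the end minus that over the 5 kb before it, a measure chosen after the profiles had been seen. It was 0.648 to 0.790 points in Raf-inactivated and 2.28 to 2.67 in Raf-activated normoxia, and 0.518 to 0.623 and 2.02 to 2.34 in hypoxia. The rises with Raf, 1.83 and 1.57 points, and the fall of 0.145 points with hypoxia in Raf-inactivated cells passed (exact permutation tests over 8 such comparisons, adjusted p = 0.0327 each). The difference of -0.412 points with hypoxia in Raf-activated cells missed it at full depth (adjusted p = 0.0571, exact) and passed at matched depth, where it was -0.404 (adjusted p = 0.0286, exact). Matched depth gave rises with Raf of 1.42 and 1.14 points.

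**Figure D3:**
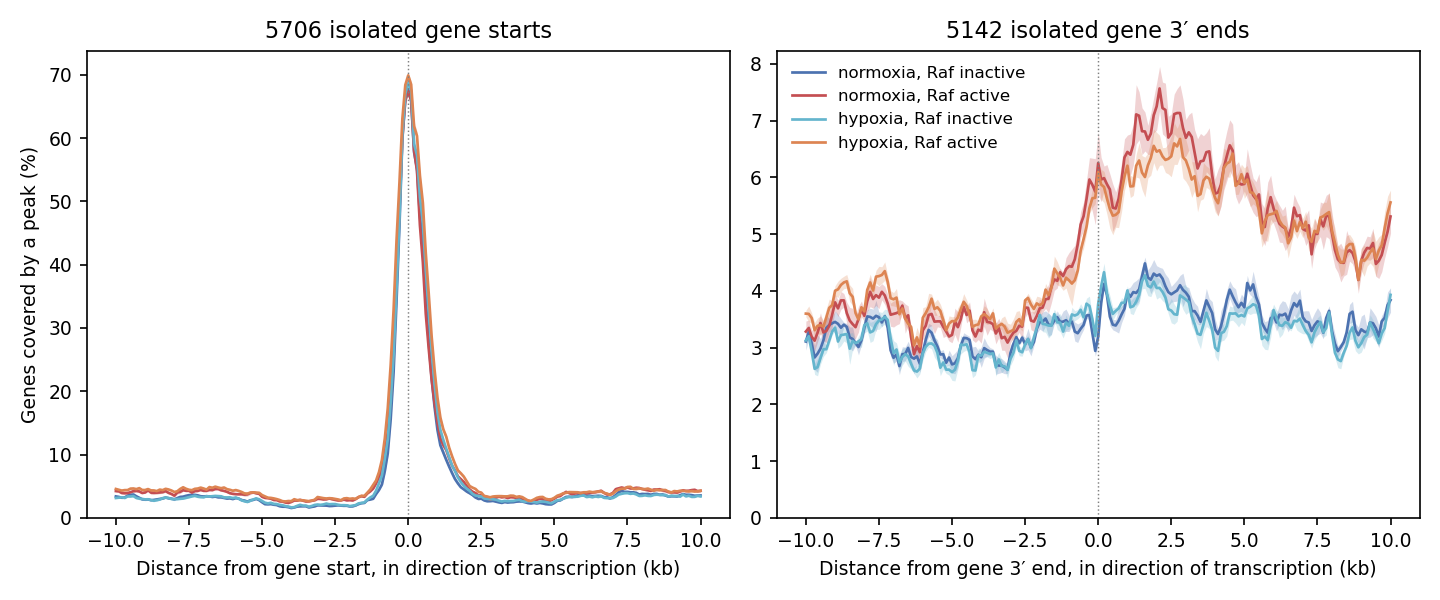
Percent of genes covered by a peak (y axis) by distance in kb from the gene start (left, 5706 genes) or the 3′ end (right, 5142 genes) along the direction of transcription (x axis). Lines are means and bands SDs of 4 libraries per group, and the y axes differ. At 500 bp before the 3′ end the Raf-activated groups already stand at 5.31% and 4.91%, against 3.40% and 3.53% in the Raf-inactivated groups. At 2 kb past it they reach 7.25% and 6.45%, against 4.26% and 4.05%.

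Gained and lost regions were counted as those with a peak in all 4 libraries of one group and in none of the other, a count with no test. With Raf in normoxia 2120 gene-end regions (9.37%) were gained and 655 (2.90%) lost, where 14.1% and 10.6% of all regions were. Split by place, 468 start regions (3.71%) and 1183 3′ end regions (21.2%) were gained, and 238 (1.89%) and 285 (5.10%) lost. With Raf in hypoxia 1819 (8.04%) were gained and 562 (2.48%) lost, against 13.8% and 8.82% of all regions, with 522 start and 885 3′ end regions among the gained. The shares of gene-end regions lay below those backgrounds in each direction. With no threshold on the fold, the share of 3′ end regions lay above the background among the gained. Requiring a fold of at least 5 left 828 gene-end regions gained with Raf in normoxia, of which 365 were 3′ end regions (6.53%, against 8.28% of all regions) and 281 were starts (2.23%). In hypoxia it left 805, with 348 3′ end regions (6.22%, against 7.71% of all) and 290 starts. At matched depth 14.4% of 3′ end regions were gained in normoxia, against 10.6% of all, and 10.3% in hypoxia, against 10.1%. No test was made of these shares.

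The Raf comparisons in normoxia and in hypoxia share no library. Of the gene-end regions gained with Raf in normoxia 896 were also gained with Raf in hypoxia, 42.3% of the first list and 49.3% of the second. Of those lost, 317 were shared, 48.4% and 56.4%. Away from gene ends 19968 regions were gained in both, of 40120 gained in normoxia and 39575 in hypoxia. There 15860 were lost in both, of 31178 and 25829. Gene-end regions therefore did not share more of their calls than other regions did. In the reverse direction 1 gene-end region was gained in normoxia and lost in hypoxia, and 1 was lost and then gained. Away from gene ends these counts were 38 and 47. Of the 238 start regions that lost the peak with Raf in normoxia, 56 (23.5%) had it in all 4 Raf-activated hypoxia libraries, as did 17 of 285 (5.96%) 3′ end regions and 2803 of 31178 (8.99%) regions away from gene ends. A pattern of 4 libraries in each of the other groups and none in Raf-activated normoxia was found at 49 start regions (0.388%). It was more frequent away from gene ends, at 2501 regions (0.905%).

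**Figure D4:**
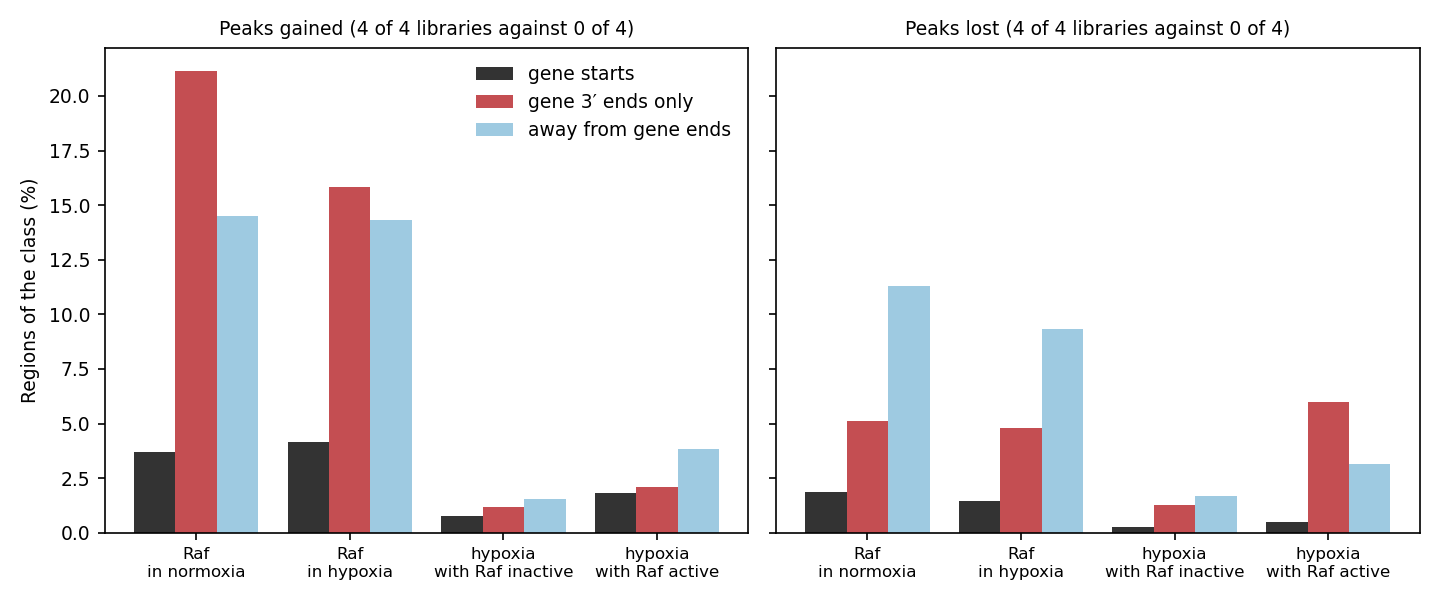
Percent of the regions of each class (y axis) that were gained (left) or lost (right) in each of the 4 comparisons (x axis), for gene starts, 3′ ends only and regions away from gene ends. With Raf in normoxia 21.2% of 3′ end regions and 3.71% of starts were gained, and with hypoxia in Raf-activated cells 5.99% of 3′ end regions and 0.499% of starts were lost.

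Among the starts that gained a peak with Raf in normoxia, the 6 strongest in their lists were DOK3, SERPINB7, ADTRP, SLAMF8, CRB2 and TXNDC11. Strength is given as summit coverage in multiples of the library's genome-wide background, and a library without a peak has no value. DOK3, an adaptor that dampens immune receptor signalling, has its region at chr5:177510225-177511396 over its printed promoter. It had no peak in the 4 Raf-inactivated normoxia libraries and coverages of 74.6, 78.2, 75.7 and 81.5 in the Raf-activated ones. In Raf-activated hypoxia they were 20.5, 20.8, 17.4 and 18.3, and 1 Raf-inactivated hypoxia library had 3.01. SERPINB7, a serpin best known from skin (chr18:63752309-63753215), stood at 43.6, 52.5, 48.3 and 59.7 with Raf in normoxia and at 8.86, 8.57, 11.8 and 8.94 with Raf in hypoxia, and had no peak without Raf. Both were therefore lower in the Raf-activated hypoxia libraries than in every Raf-activated normoxia library. ADTRP, an enzyme that splits fatty acid esters of hydroxy fatty acids, showed the same order, with 38.5 to 45.5 and 7.35 to 8.03. SLAMF8, a receptor of the SLAM family on myeloid cells, was closer between them, at 69.8 to 81.5 and 62.8 to 69.6.

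Among 3′ ends the strongest gains with Raf in normoxia were at CYB561A3, KCNJ14 and DPM2. At CYB561A3, a lysosomal ferric reductase, the region at chr11:61347950-61348800 had its midpoint 370 bp past the 3′ end. It had no peak in Raf-inactivated normoxia, coverages of 88.2, 90.1, 84.4 and 89.4 with Raf in normoxia and 63.7, 62.8, 70.5 and 74.3 with Raf in hypoxia, and 3.69 in 1 Raf-inactivated hypoxia library. The region of KCNJ14, a potassium channel, lay just before its end (chr19:48466564-48466963, midpoint offset -217 bp) at 99.6 to 113 and 57.6 to 63.6. The region of DPM2, a subunit of dolichol-phosphate mannose synthase, had an offset of -890 bp and stood at 85.6 to 101 and 72.6 to 90.2. The local background that MACS2 weighed at the latter 2 was high, a median of 13.6 and 12.2 times the genome-wide one, so a weaker peak there could have gone uncalled in the other groups. Its part in these calls was not tested.

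LDB1, MAP2K6, C1GALT1 and TRAM1L1 were 4 of the 6 strongest losses at starts with Raf in normoxia, and each kept its peak in hypoxia. At LDB1, an adaptor of LIM-domain transcription factors (chr10:102121086-102121980), coverage was 91.6, 83.3, 99.7 and 109 without Raf, and no Raf-activated normoxia library had a peak. The Raf-inactivated hypoxia libraries had 104, 114, 91.7 and 94.9 and the Raf-activated ones 40.5, 42.0, 43.7 and 44.4. Its local background was 13.3 times the genome-wide one.

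MAP2K6, the kinase that activates p38 (chr17:69414506-69415368), had 40.2, 36.5, 36.6 and 36.0, then none, then 40.2, 40.2, 43.0 and 35.5, then 8.72, 10.6, 10.9 and 9.08, in the order of groups just used. At TRAM1L1, a protein of the endoplasmic reticulum translocation site (chr4:117084933-117085793), the values were 24.4, 20.6, 26.5 and 24.6, none, 26.7, 26.7, 18.1 and 16.1, and 4.15, 6.28, 5.64 and 6.29. C1GALT1, which makes the core 1 O-glycan (chr7:7156991-7158310), went from 28.5 to 34.5 to none, and from 48.7 to 53.0 to 7.40 to 11.3 in hypoxia. Local background was 2.33, 1.19 and 1.93 times the genome-wide one at these 3 genes. In all 4 the Raf-activated hypoxia libraries were below every Raf-inactivated library while still above the threshold.

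The other 2, FBXO15 and OR2F2, had no peak with Raf in either oxygen condition. At 3′ ends PIGN, an enzyme of GPI anchor synthesis, fell from 53.4 to 66.7 in Raf-inactivated normoxia to no peak with Raf (chr18:62017750-62018633). CCDC112 and PROX2 behaved like LDB1: CCDC112 had 51.5 to 60.0, none, 59.9 to 71.8, and 4.75 to 7.20, and PROX2, a homeobox gene, 43.1 to 52.0, none, 31.9 to 45.2, and 3.07 to 4.13.

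**Figure D5:**
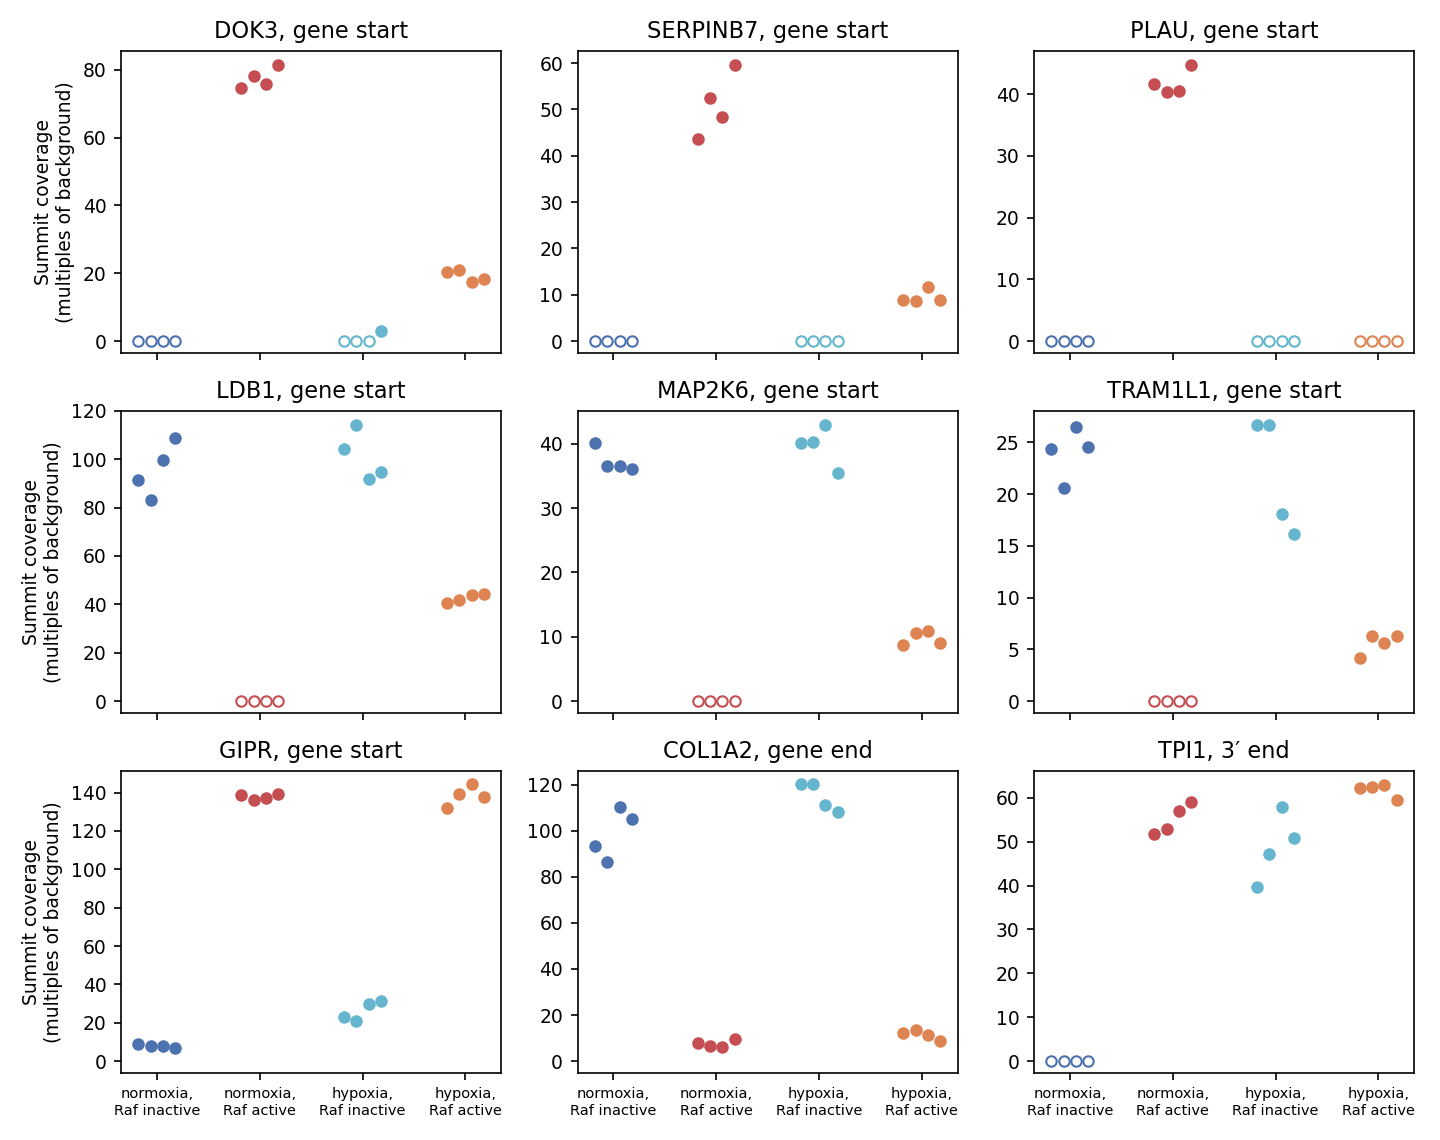
Summit coverage in multiples of the library's background (y axis) at 9 gene-end regions in each library (points) by group (x axis). Open circles at 0 mark libraries with no peak called there. DOK3 and SERPINB7 have peaks mainly with Raf. The PLAU region, which is not the only one at its start, has them only in Raf-activated normoxia. LDB1, MAP2K6 and TRAM1L1 have them in every group but that one. GIPR and COL1A2 show opposite Raf changes in both oxygen conditions, and TPI1 lacks a peak only in Raf-inactivated normoxia.

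With Raf in hypoxia the strongest gains at starts were at KLF17, MSMP, CPNE6, SPEM1, NLRX1 and ROPN1L. The first 5 had a peak with Raf in normoxia too: KLF17, a zinc-finger factor (chr1:44044062-44044640), had 74.7 to 84.3 in hypoxia and 62.1 to 73.3 in normoxia. CPNE6, a copine that binds membranes in response to calcium, had 44.6 to 52.2 and 18.3 to 21.5. ROPN1L differed in that only Raf-inactivated hypoxia lacked its peak. At 3′ ends BRME1, CHLSN and CYSLTR2 led. CYSLTR2, a leukotriene receptor (chr13:48709997-48710979), stood at 47.6, 53.6, 55.2 and 55.7 with Raf in hypoxia and at 9.25, 12.9, 11.7 and 13.7 with Raf in normoxia.

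The losses with Raf in hypoxia included ANXA1, the annexin that limits inflammation, at a region 764 bp past its start (chr9:73152468-73152790). Its coverage was 45.4, 49.0, 40.5 and 45.2 without Raf in hypoxia and 25.03, 24.6, 23.2 and 22.01 without Raf in normoxia, and no Raf-activated library had a peak. XIRP1, an actin-binding protein of muscle, and LMO7, an adhesion protein, fell from 47.6 to 57.4 and from 51.2 to 58.7 to no peak. At 3′ ends the strongest were CENPE, a mitotic kinesin (chr4:103105491-103106569), with 55.2 to 66.2 and none, SERPINE3 with 35.8 to 42.2, and CDC40, a splicing factor, with 40.1 to 47.8.

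Hypoxia alone moved few gene-end regions. In Raf-inactivated cells 203 (0.898%) were gained and 135 (0.597%) lost, against 1.5% and 1.59% of all regions. The gained numbered 122 when a fold of at least 5 was required. The 3′ end region of TPI1, the glycolytic triosephosphate isomerase (chr12:6871505-6871861), was among the strongest 3 gained at 3′ ends. It had no peak in Raf-inactivated normoxia and coverages of 39.7, 47.2, 57.8 and 50.8 in hypoxia, and it was also called in all Raf-activated libraries, at 51.8 to 59.1 in normoxia and 59.5 to 63.0 in hypoxia. Local background there was 15.2 times the genome-wide one. ZNF138, a zinc-finger gene (chr7:64793493-64793795), had a peak at an offset of -784 bp from its start in Raf-inactivated hypoxia only, at 23.2, 24.3, 29.2 and 33.4. At HDAC1, a histone deacetylase, a small region at the same offset, -784 bp, had 19.3 to 22.4 in Raf-inactivated hypoxia and peaks in every Raf-activated library, with local background 6.50 times the genome-wide one. Losses included LTBP4, a TGF-beta binding matrix protein, at 13.7 to 19.6 in normoxia and no peak in hypoxia (Raf-inactivated), and the 3′ end of TMEM255B, whose peak was present in Raf-inactivated normoxia only, at 36.6 to 41.4.

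In Raf-activated cells 435 gene-end regions (1.92%) were gained and 496 (2.19%) lost, against 3.69% and 3.06% of all regions. The lost ones were 335 3′ end regions (5.99%) and 63 starts (0.499%), and the gained 118 (2.11%) and 228 (1.81%). When a fold of at least 5 was required, 215 gene-end regions were lost, of which 98 were 3′ end regions (1.75%, now below the 1.95% of all regions) and 74 were starts (0.586%). By gene, 302 of 15812 lost and 100 gained an open 3′ end.

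Several start regions had a peak in Raf-activated normoxia and in no other group. At PLAU, the urokinase plasminogen activator secreted by senescent fibroblasts, the region at an offset of -791 bp from the start (chr10:73907905-73908177) had coverages of 41.5, 40.4, 40.4 and 44.8 there and no peak in the other 12 libraries. Local background was 15.7 times the genome-wide one. Over all its start regions PLAU counted neither as gained with Raf in normoxia nor as lost with hypoxia. Another of its start regions therefore had a peak outside Raf-activated normoxia. CCL20, a chemokine whose region overlaps its printed promoter (chr2:227813646-227813967), had 20.9, 19.3, 23.8 and 24.2 and no peak elsewhere. Its printed bases hold 1 match to TATAAA. TBX6, a T-box factor, followed the same pattern at 39.3 to 50.1, with local background 12.2 times the genome-wide one. ELF3, an epithelial ETS factor (chr1:202010031-202010658), had 22.5 to 26.6 and scattered weaker peaks of at most 8.89 in Raf-inactivated libraries. Gains with hypoxia included LDB1 again, and CCDC34 and NCR3LG1, the ligand of an activating NK cell receptor, which had a peak in Raf-activated hypoxia only, at 20.7 to 23.2 and 35.2 to 42.7.

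The genes behind gained and lost starts differed in setting. By gene, 265 starts were gained and 175 lost with Raf in normoxia. The genes with gained starts had a median length of 15224 bp and 18 protein-coding genes within 1 Mb, and those with lost starts 64223 bp and 7, where all oriented genes had 25604 bp and 13. In hypoxia the medians were 15047 bp and 17 for the 294 gained and 46196 bp and 6 for the 100 lost. Both kinds were poor in CG dinucleotides, with medians of 6 and 9.5 in normoxia against 22 for all promoters. TGANTCA, the AP-1 motif on either strand, was in 11.3% of the promoters gained with Raf in normoxia, in 8.44% of those lost and in 5.67% of all. It was also in 8.55% of all promoters whose start varied between libraries and in 8.18% of those with no start region, sets that are likewise poor in CG dinucleotides (medians 10 and 4). Of the 1143 genes whose 3′ end was gained with Raf in normoxia 77.3% had a start open in all 16 libraries, against 65.2% of all oriented genes, their promoters had a median of 25 CG dinucleotides, and 17 genes lay within 1 Mb. The values were close to these for genes with a 3′ end open in all 16 libraries, at 76.2%, 24 and 18. Beyond the 1 kb limit, 22.4% of the regions between 1 and 2 kb past a 3′ end were gained with Raf in normoxia. So were 22.5% of those between 2 and 5 kb past it and 15.8% of those 10 to 20 kb past it. Before the end the shares at the same distances were 17.2%, 16.4% and 14.98%. Within the limit both sides were close. In the 500 bp before and past the end 20.8% and 19.8% were gained, and from there to 1 kb 19.1% and 21.3%.

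For the regions open in all libraries, strength was compared by rank. Each library's -log10 p was turned into normal scores over the 78756 regions with a peak in all 16, so that a change of 1 is about 1 SD of the strength of all such regions, and the scores were fitted with limma. The 12951 gene-end regions among them were strong, with a median coverage of 65.1 times background at starts against 24.8 away from gene ends. With Raf in normoxia 3679 gene-end regions rose and 5996 fell in rank (adjusted p below 0.05), which is 28.4% and 46.3%, where 37% and 37.9% of all fitted regions did. Starts carried the fall, with 2467 up and 4699 down and a median change of -0.20, while 3′ ends went the other way, with 508 up and 308 down and a median of 0.16. A rank is relative, so a fall at starts means lower strength against the other regions of the same library.

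With Raf in hypoxia 4943 rose and 4567 fell (backgrounds 37.5% and 36.2%), and starts were even, with 3458 up and 3521 down and a median of 0.01. Ranked by fold in place of -log10 p, 2938 rose. Hypoxia in Raf-inactivated cells lowered starts, with 4226 down and 851 up. Over all gene-end regions 1323 rose and 5614 fell, against 26.3% and 27.5% of all regions. This comparison shares its Raf-inactivated normoxia libraries with the first one. Fitted on log2 coverage over background, an alternative added after seeing the data, the counts were 2429 up and 3642 down. Hypoxia in Raf-activated cells gave 2820 up and 3050 down (22.6% and 22.5% of all; 1335 up when ranked by fold). The Raf change differed between oxygen conditions at 5415 gene-end regions, where 45.5% of all regions did so: it was higher in hypoxia at 4149 (23% of all) and lower at 1266 (22.5% of all). Ranked by fold, 3394 gene-end regions passed this test.

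The steepest rank rise with Raf in normoxia was at GIPR, the receptor of the incretin GIP, at an offset of -308 bp from its start (chr19:45667531-45668295). Coverage there was 8.89, 7.97, 7.74 and 6.86 in Raf-inactivated and 139, 136, 137 and 139 in Raf-activated normoxia, and 23.2, 20.7, 29.6 and 31.4, then 132, 139, 144 and 138 in hypoxia. The groups with and without Raf lay far apart in both oxygen conditions, and GIPR was also the largest rise with hypoxia in Raf-inactivated cells. Its score rose by 4.43 ± 0.13 (SE) with Raf in normoxia (limma adjusted p = 5.48e-21). XCR1, a chemokine receptor, and WDR82, a subunit of the SET1 methyltransferase complex that also acts in transcription termination, rose at their 3′ ends by 3.49 and 3.08. At WDR82 (chr3:52253199-52254475) coverage went from 5.43 to 10.5 up to 103 to 107, and in hypoxia from 3.29 to 5.21 up to 81.5 to 90.7, the largest rise there (3.88).

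The falls were led by OR51E2 and by COL1A2, the gene of the alpha-2 chain of type I collagen. At the end of COL1A2 with the lower coordinate (chr7:94394068-94395131, orientation not in the table) coverage was 93.5, 86.3, 110 and 105 without and 8.07, 6.73, 6.24 and 9.43 with Raf in normoxia, and 120, 120, 111 and 108, then 12.04, 13.6, 11.3 and 8.80 in hypoxia. Its score fell by 3.19 in normoxia (limma adjusted p = 3.08e-17). COX15, an enzyme of heme A synthesis, fell by 3.14 and RPL15, a ribosomal protein, by 2.93 at their 3′ ends. With Raf in hypoxia the 3′ ends of ABHD4, NUAK2, LOXL4 and DNAJC15 were among the 5 steepest falls. LOXL4, a collagen-crosslinking enzyme (chr10:98246111-98247410), went from 38.9 to 44.3 down to 4.08 to 6.12.

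Some of the largest rank changes with hypoxia are given next. In Raf-inactivated cells the 3′ end of RASSF5, a Ras effector, rose from 18.2 to 22.3 up to 60.2 to 79.4 (change 1.84), and that of ATG16L2, an autophagy gene, fell from 15.5 to 20.1 down to 4.32 to 5.21 (-1.94). In Raf-activated cells the start of MC4R, a melanocortin receptor (chr18:60372329-60373241), rose from 4.50 to 4.87 up to 16.3 to 17.9 (1.85). Without Raf it had 35.6 to 40.8 in normoxia and 38.9 to 55.8 in hypoxia, so the Raf-activated hypoxia values lay between. A region near the 3′ end of TNFAIP3, the NF-kappaB inhibitor A20 (chr6:137882081-137882956, offset -794 bp), fell from 15.9 to 21.3 down to 3.18 to 5.05 (-1.81), and an end of C3, the complement component, from 22.5 to 31.1 down to 5.40 to 7.54 (-1.62).

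The gene lists were read at the start regions, with no test of a list. Members without an orientation were left out, so the counts do not cover whole lists. Oriented were 24 of 35 secretory, 21 of 32 matrix, 15 of 24 RAF-ERK, 13 of 17 arrest and 13 of 14 lamina genes. So were 22 of 26 replication, 42 of 47 histone, 40 of 51 ribosomal, 30 of 34 HIF and glycolysis, and 18 of 23 histone clipping and H3K9 genes. Of all 9455 start regions ranked, 26.1% rose and 49.7% fell with Raf in normoxia (median -0.20), and 36.6% rose and 37.2% fell with Raf in hypoxia (median 0.01). The counts of each list are to be read against these shares. Where a gene had more than 1 start region, the counts used the ranked region nearest the start. The coverages printed are of the region with a peak in most libraries and then the highest coverage, which may be another. COL12A1 had 3 start regions, and ICAM1 and HGF had 2 each. Genes of DNA replication and mitosis kept their starts open: all 22 oriented members had a start peak in all 16 libraries. In rank 8 rose and 11 fell with Raf in normoxia (median -0.16). MCM3, a helicase subunit, went from 203, 211, 207 and 217 to 102, 111, 112 and 116 times background, and CDK1, the mitotic kinase, from 120 to 149 down to 49.2 to 75.9. PLK1, another mitotic kinase, fell with Raf in normoxia (78.0 to 87.0 down to 48.0 to 56.5, change -0.78) and rose in hypoxia (71.9 to 79.4 up to 86.0 to 93.0, change 0.29), a difference that passed the interaction test (limma adjusted p = 3.6e-09).

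Of 42 oriented clustered histone genes 41 were open at the start in all libraries. Of these 27 fell and 1 rose with Raf in normoxia (median -0.46), and 32 fell and 0 rose in hypoxia (median -0.39). H2BC3 went from 66.0 to 84.0 down to 34.4 to 38.7 times background in normoxia. Among 40 ribosomal protein starts, all open throughout, 17 rose and 10 fell in normoxia (median 0.12), where among all starts more fell than rose.

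Of 18 ranked matrix genes of fibroblasts 13 fell and 2 rose with Raf in normoxia, where 49.7% of all starts fell, and 11 fell and 3 rose in hypoxia, where 37.2% did (medians -0.45 and -0.43). FBN2, which encodes fibrillin-2, went from 69.7 to 89.8 down to 10.6 to 18.6 in normoxia and from 58.4 to 71.7 down to 7.89 to 12.2 in hypoxia. LOX, lysyl oxidase, went from 83.4 to 92.9 down to 16.3 to 24.8 and from 108 to 111 down to 21.8 to 27.6. COL12A1 went from 71.8 to 79.7 down to 17.03 to 25.2 and from 88.6 to 101 down to 14.5 to 19.3. None of the 3 had overlapping groups. At PDGFRA, the gene of platelet-derived growth factor receptor alpha, the peak was lost with Raf in hypoxia: its start had 21.0 to 31.5 in Raf-inactivated and no peak in Raf-activated hypoxia, and 27.01 to 38.8 in Raf-inactivated and 16.1, 19.2 and 17.9 in 3 of 4 Raf-activated normoxia libraries.

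Of 24 oriented secretory genes of senescence 20 had a start open throughout, and of those 8 rose and 7 fell with Raf in normoxia, 3 and 10 in hypoxia (all starts: 26.1% and 49.7%, then 36.6% and 37.2%). ICAM1, an adhesion molecule, rose from 11.2 to 13.2 up to 46.4 to 56.3 in normoxia and from 7.37 to 10.97 up to 21.4 to 25.6 in hypoxia (changes 1.35 and 0.81). CSF2, the cytokine GM-CSF, had 8.96 to 12.5 and 34.01 to 38.7 in normoxia. HGF, hepatocyte growth factor, and CXCL3, a chemokine, fell, HGF from 29.5 to 38.0 down to 6.17 to 9.15 and CXCL3 from 31.9 to 40.6 down to 10.4 to 15.5. The members therefore did not move one way.

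Of 11 ranked genes of cell cycle arrest and senescence 3 rose and 6 fell with Raf in normoxia, and of 12 ranked genes of the nuclear lamina and envelope 4 rose and 6 fell, with 26.1% and 49.7% of all starts doing so. CDKN2B, which encodes p15, fell from 105 to 128 down to 37.4 to 69.98 with Raf in normoxia, and HMGA1, a chromatin protein of senescence foci, rose from 37.9 to 47.8 up to 110 to 121. Lamin B1 (LMNB1), whose loss marks senescence, fell from 108 to 124 down to 55.4 to 75.5. TERT, the telomerase gene, had a start peak in 3 Raf-activated hypoxia libraries only, at 4.98, 5.88 and 4.33. Of 14 ranked genes of RAF-ERK feedback and early response, 8 fell and 1 rose in normoxia, where 49.7% of all starts fell. The 8 included EGR1 (204 to 234 down to 145 to 163) and the ERK phosphatase DUSP6, whose groups overlapped (73.1 to 90.5 and 53.7 to 81.4).

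HIF targets and glycolysis genes went both ways at their starts with hypoxia. Of 24 open throughout, 6 rose and 8 fell in Raf-inactivated cells (median 0.03), where 851 of the 9455 starts rose and 44.7% fell (median -0.17). In Raf-activated cells 4 rose and 7 fell (median 0.05), where 22.7% of all starts rose and 22.95% fell. BHLHE41, a circadian repressor that hypoxia induces, gained a start peak in Raf-inactivated cells, with none in 4 normoxia libraries and 9.99, 11.8, 13.4 and 14.8 in hypoxia, and peaks in 2 of 4 libraries of each Raf-activated group. EGLN3, an oxygen-sensing prolyl hydroxylase, rose with hypoxia in Raf-activated cells from 14.5 to 24.1 up to 38.5 to 47.4 (change 0.77). In Raf-inactivated cells it had 53.7 to 82.6 and 86.6 to 91.7, with a limma adjusted p of 0.0698. Of the 16 ranked genes of histone clipping and H3K9 methylation, 6 rose and 6 fell with Raf in normoxia, against 26.1% and 49.7% of all starts. The H3K9 demethylase KDM4D went from 96.2 to 124 down to 29.5 to 49.7, and its paralog KDM4A from 161 to 182 up to 210 to 231.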

How the data were processed

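IMR90 ATAC-seq peak lists, 1 per library, were used as deposited by the authors in hg38. Per the submitters' processing notes the tools were MACS2, bedtools, deepTools, Picard, SAMtools, Bowtie2, cutadapt and FastQC, with no role, order or version given in the sources used here. Each deposited peak carries the authors' score (10 times -log10 q, rounded down), the fold enrichment at its summit, and -log10 p and -log10 q, as the file columns hold them. The lists hold -log10 q of at least 1.30. The pileup and the local background of each summit were recovered from its fold and -log10 p with a Poisson model, and the most common local background in a library was taken as its genome-wide background. These are recovered values, not read counts, and are less sure in Raf-inactivated normoxia, where they are lowest.

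A library had a region if any of its peaks overlapped it. Groups followed the labels. Shares with a peak were compared by two-sided exact permutation tests with Benjamini-Hochberg adjustment over 12 comparisons. The regions had been chosen by peaks in the same libraries, so these tests are not independent of that choice. Regions with a peak in all 16 libraries were ranked by -log10 p, turned into normal scores and fitted over all 78756 with limma 3.58.1 in R 4.3.3 (4 group means, adjusted p below 0.05 by Benjamini-Hochberg), a fit tested on simulated data. Other steps used Python 3.11.15.

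Regions were named by the gene with the nearest end. Per comparison, the rule took the 6 start regions and the 3 regions at 3′ ends gained, and as many lost, with the highest lowest-of-4 within-list percentile, the 5 largest rank rises and falls whose groups did not overlap, and the 3 largest of each sign for the interaction. From each gene list it took members with the largest changes. Members and lists were chosen with earlier results of these data known. The profiles (windows widened once after a first look), the asymmetry and open-end tests, the fit on coverage over background, some list examples and the printed promoters were chosen after seeing the data. Alternatives were matched depth (summits thinned to the lowest background, kept at -log10 p of at least 5), thresholds of fold 5 and -log10 q 5, equal list lengths, 500 bp and 2 kb limits, at least 4 libraries, 3 of 4 against 1 of 4, ranking by fold, fits of only the groups compared, the replicate block and leaving out each library.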

Additional observations from a re-analysis of the deposited data

Results flagged for a closer look

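The Raf change in rank differed between hypoxia and normoxia at 5415 of the 12951 gene-end regions open in all 16 libraries (limma, adjusted p below 0.05), where 45.5% of all such regions did. The differences below are normal scores, hypoxic minus normoxic Raf change, and each passed this interaction test. DRC12, at its start, had a difference of 2.93: coverage went from 37.2 to 42.2 times background down to 13.2 to 19.2 with Raf in normoxia and from 9.47 to 14.5 up to 37.7 to 47.6 in hypoxia. PRKCB, which encodes a protein kinase C, had 2.37 at its start, and PLA2G3, a secreted phospholipase, 2.46 at an unoriented end. At 3′ ends the differences were -2.94 for EIPR1, -2.65 for SGK1, a kinase induced by serum and glucocorticoids, and -2.51 for SRPK1, a kinase of splicing factors. At SGK1 coverage rose from 4.76 to 9.55 up to 14.8 to 17.6 with Raf in normoxia and fell from 14.9 to 34.3 down to 6.78 to 10.5 in hypoxia. No library stood apart from its group in 24 tests by Dixon's criterion.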

How the results depend on the processing

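Background pileup moves with Raf state, and an uncalled region may be open below the threshold. Percentages are differences in points, and counts are of gene-end regions; causes of the shifts were not tested. With a fold of at least 5, regions gained numbered 828 with Raf in normoxia, 805 with Raf in hypoxia and 122 with hypoxia in Raf-inactivated cells, and 215 were lost with hypoxia in Raf-activated cells. The differences for starts were then -0.194, 0.800, 0.602 and 1.60 for Raf in normoxia, Raf in hypoxia, hypoxia without and hypoxia with Raf. Those for 3′ ends were 2.74 and 2.37 with Raf and -0.818 with hypoxia in Raf-activated cells, and the excess of gene ends over other regions changed by 1.60 with Raf in normoxia and by 0.133 and -0.0222 with hypoxia without and with Raf; none passed. Of 72 regions named for a gain or loss, 27 no longer met the definition. Local background was also high at some regions named above without it. In multiples of the genome-wide one the medians were 12.7 at FBXO15, 11.1 at CHLSN, 10.0 at KLF17, 9.91 at TXNDC11 and 8.58 at NCR3LG1. Matched depth gave 1.299 (starts, Raf in normoxia) and 0.877 (starts, hypoxia without Raf), which did not pass, and -2.38 (3′ ends, hypoxia without Raf), 2.81 (excess, Raf in hypoxia) and -0.404 (asymmetry, hypoxia with Raf), which did. The excess with Raf in hypoxia also passed with -log10 q of at least 5 (1.504), equal list lengths (3.40) and a 2 kb limit (4.61), and was -1.23 with a 500 bp limit. The 3′ end difference with hypoxia in Raf-inactivated cells was 0.586 with -log10 q of at least 5 and -1.83 with 2 kb, which passed. Within 500 bp, starts gave 1.26 (Raf in normoxia) and 0.606 (hypoxia without Raf), neither of which passed.

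Gained and lost counts, in the order Raf in normoxia, Raf in hypoxia, hypoxia without and hypoxia with Raf, were 1124 and 379, 972 and 314, 88 and 69, and 233 and 250 within 500 bp. They were 4125 and 1208, 3530 and 1079, 386 and 262, and 721 and 931 within 2 kb. With 3 of 4 against 1 of 4 they were 3500 and 1122, 2961 and 967, 678 and 499, and 1098 and 1274. Ranking by fold gave 2938 rises with Raf in hypoxia, 1335 with hypoxia in Raf-activated cells and 3394 interaction calls. Coverage over background gave 2429 rises and 3642 falls with hypoxia in Raf-inactivated cells.

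With the replicate block, 3663 gene-end regions rose and 5976 fell with Raf in normoxia; the numbers did not pair the libraries (24 same-numbered pairs, r from -0.0217 to 0.0256, and 3 best with their own number), and no count moved by over 1.5 times.

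Leaving out 1 library, 3 against 4 cannot give an exact p below 0.0571, so no percentage could pass. The ranges in the same order were 3.09 to 3.63, 4.84 to 5.17, 1.65 to 2.15 and 3.33 to 3.74 for starts. For 3′ ends they were 28.6 to 30.6, 19.3 to 20.4, -1.11 to -0.521 and -11.5 to -9.48. For the excess they were 5.11 to 5.68, 1.19 to 1.68, 1.94 to 2.25 and -2.17 to -1.60. For the asymmetry they were 1.79 to 1.92, 1.497 to 1.61, -0.169 to -0.121 and -0.501 to -0.370. For genes with an open 3′ end they were 1478 to 1572, 1052 to 1114, -113 to -69.5 and -576 to -482. Counts of gained, lost and ranked gene-end regions all stayed within 1.5 times without any 1 library.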
